A study of Mus musculus with 10 samples.

Results

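The 10 genes described here encode the cell-surface enzymes that break down extracellular nucleotides, the enzyme that removes adenosine, and adenosine receptors. They are Entpd1, Entpd2 and Entpd3 (NTPDases), Enpp1 and Enpp3 (nucleotide pyrophosphatases), Nt5e (the 5'-nucleotidase CD73), Ada (adenosine deaminase), and the receptor genes Adora1, Adora2a and Adora2b. They were grouped by function, and the choice was made with earlier results of these data known. Each is the row of the count table whose Ensembl mouse gene identifier carries that symbol. All 10 were found among 37417 gene rows, and 9 of them passed the filter on low counts that left 15299 genes for testing. Entpd3 was below that filter.

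RNA-seq was made of bulk subcutaneous tumors of Panc02, a pancreatic cancer line of the mouse. The hosts were C57BL/6J animals of 12 weeks labelled wild type, and the tumors were taken at day 16 after injection. The 5 sgNT tumors came from cells carrying a nontargeting guide RNA and the 5 sgCda tumors from cells carrying a guide against Cda, which encodes the pyrimidine salvage enzyme cytidine deaminase. Both kinds of cells had received a doxycycline-inducible Cas9 by lentivirus, drug selection and a doxycycline pulse before use, and no treatment of the mice is recorded in the labels. The guide acted only in the injected cancer cells, and whether the cells of these tumors were a drug-selected population or cloned from single cells is not stated. The host cells of every tumor carried no guide. The comparison asks how the tumor transcriptome differs when Cda is targeted in the cancer cells. The labels number the tumors 1 to 5 in each group and do not say whether each came from its own mouse, so the p-values measure the spread between these tumors.

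ATP released from stressed or dying cells is hydrolysed outside the cell to ADP and AMP by NTPDases such as CD39, the product of Entpd1, or directly to AMP by pyrophosphatases such as ENPP1. CD73 then turns AMP into adenosine, which signals through G protein-coupled receptors until it is deaminated to inosine by adenosine deaminase or taken up by cells. In tumors this route is known for turning an inflammatory signal, ATP, into adenosine, which restrains T cells through the A2a receptor and acts on myeloid and stromal cells through the A2b receptor.

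The guides below define the groups and are printed to show what was changed in the cancer cells.
sgNT guide: gaacagtcgcgtttgcgact
sgCda guide: tccagaaggccatctccgaa
The sgCda guide matched the minus strand of exon 2 of Cda, within coding sequence, at chr4:138351219-138351238 of GRCm38, and an NGG motif followed the match. Cda lies on the minus strand of chromosome 4 and was measured at 10.1 to 14.7 CPM (counts-per-million assigned reads, library sizes scaled with TMM factors) in sgNT tumors and 7.47 to 12.5 in sgCda tumors, so the groups overlapped. Its log2 fold change, sgCda over sgNT, was −0.30 ± 0.17 (SE), with an adjusted p = 0.9996 (edgeR quasi-likelihood test, Benjamini-Hochberg over all genes tested). Transcript level in a bulk tumor does not read the edit itself, since edited and host transcripts are counted alike.

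The 10 libraries held 28051907 to 39484964 assigned counts. The share of uniquely mapped reads that matched no counted feature ran from 10.3% to 18.4%, highest in sgCda 4. No gene of 15299 (0%) differed between the groups at an adjusted p under 0.05 by edgeR, DESeq2 or limma-voom. Without the adjustment, 382 genes (2.5%) had p under 0.05 in edgeR, of which 236 had a higher mean in sgCda tumors. Skeletal muscle genes varied most among the marker lists: their mean log2 CPM ran from −1.78 to 7.66, and 5 tumors lay at or below 1.56 while the other 5 lay at or above 4.86. None of 16 marker scores differed between the groups (exact permutation tests, all adjusted p = 1).

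Across the 9 tested genes of the pathway, 7 had a higher and 2 a lower mean in sgCda tumors, and none passed the test. None had an unadjusted p under 0.05, against the 2.5% of all genes, and in none did the CPM of the groups fail to overlap, against 0.601% of all genes. The median log2 fold change of the 9 genes was 0.076 and the median absolute value 0.095, beside 0.0078 and 0.078 over all genes tested. The smallest unadjusted p among them was 0.254, for Adora2b by edgeR's quasi-likelihood test. The intervals given below show which differences the data could still hold. In a bulk tumor, fewer cells of a type and less RNA per cell cannot be told apart.

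**Figure D1:**
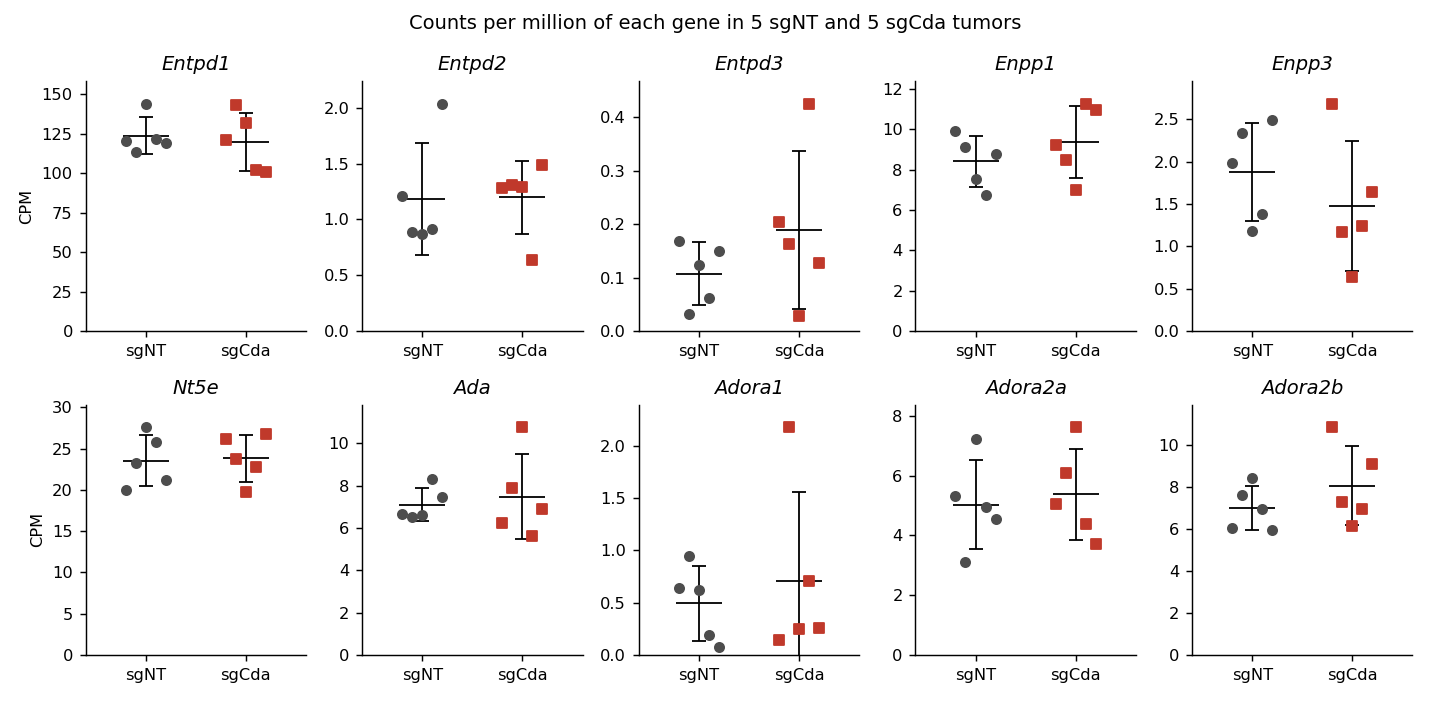
CPM (vertical axes, from 0, a separate scale for each gene) of the 10 genes in 5 sgNT tumors (circles) and 5 sgCda tumors (squares), drawn in order of replicate number; the bars are the mean and 1 SD, and the lower SD bar of Adora1 in sgCda tumors is truncated at 0. The groups overlapped for every gene, and 1 sgCda tumor (2.18 CPM) stood above the others for Adora1.

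Entpd1 (chr19:40612366-40741602, plus strand) encodes CD39, which removes phosphates from ATP and ADP and is abundant on macrophages, endothelium and regulatory T cells. Its levels were 121, 114, 144, 122 and 119 CPM in sgNT tumors 1 to 5 and 121, 143, 132, 102 and 101 CPM in sgCda tumors 1 to 5. The highest tumors were sgNT 3 and sgCda 2, the lowest sgCda 5 and 4, and the groups overlapped. The means were 124 ± 11.7 (SD, n = 5) and 119.9 ± 18.5 CPM (SD, n = 5), and 2 of 5 sgCda tumors were above the sgNT mean. The log2 fold change was −0.047 ± 0.11 (SE), with a 95% interval of −0.28 to 0.19, which is a change of −17.8% to 13.9%. It was among the less variable of the 10 genes: its biological coefficient of variation was 0.13, beside a median of 0.16 over all genes.

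Entpd2 (chr2:25395874-25401321, plus strand) encodes NTPDase2, which prefers ATP and leaves ADP to accumulate. It had 1.21, 0.884, 0.868, 0.911 and 2.04 CPM in sgNT tumors and 1.28, 1.31, 1.29, 0.638 and 1.49 CPM in sgCda tumors. These values rest on 18 to 81 counts a tumor. The sgNT 5 tumor was highest and sgCda 4 lowest, so each end of the range was set by 1 tumor. Its log2 fold change was 0.019 ± 0.31 (SE; 95% interval −0.65 to 0.69). Its exons share 28.8% of their bases with Npdc1 on the same strand, and Npdc1 was measured at 71.5 to 124 CPM, so how reads in the shared bases were assigned affects the Entpd2 level.

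Entpd3 (chr9:120539818-120568327, plus strand) encodes NTPDase3, best known from pancreatic islets and neurons. It had 5, 1, 4, 2 and 6 counts in sgNT tumors and 7, 6, 1, 12 and 4 counts in sgCda tumors, too few to test. The sums were 18 counts in sgNT tumors (exact 95% Poisson interval 10.7 to 28.4) and 30 counts in sgCda tumors (20.2 to 42.8), intervals that overlap and cover counting error only. The sgCda 4 tumor gave 12 of the 30.

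Enpp1 (chr10:24637914-24712159, minus strand) encodes a pyrophosphatase that makes AMP from ATP and also degrades cGAMP, the messenger of cytosolic DNA sensing. It was measured at 9.91, 9.13, 7.53, 6.75 and 8.77 CPM in sgNT tumors and 9.22, 8.46, 6.99, 11.3 and 10.98 CPM in sgCda tumors. The sgCda 4 and 5 tumors were highest and sgNT 4 lowest, with 4 of 5 sgCda tumors above the sgNT mean. The log2 fold change was 0.16 ± 0.16 (SE; 95% interval −0.19 to 0.50), with an unadjusted p = 0.340 and an adjusted p = 0.9996 (edgeR). It was between 0.080 and 0.092 without sgNT 4, sgCda 4 or sgCda 5, and 0.24 without sgCda 3.

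Enpp3 (chr10:24772406-24842823, minus strand), the neighbour of Enpp1, encodes CD203c, a pyrophosphatase of basophils and mast cells that limits extracellular ATP. Its levels were 1.99, 2.34, 1.18, 1.38 and 2.49 CPM in sgNT tumors and 2.68, 1.17, 0.643, 1.24 and 1.65 CPM in sgCda tumors. The sgCda group held both the highest tumor, sgCda 1, and the lowest, sgCda 3, and 1 of 5 sgCda tumors was above the sgNT mean. Its log2 fold change of −0.35 ± 0.36 (SE) had a 95% interval of −1.13 to 0.44, so changes from −54.4% to 35.8% lay inside it. It was −0.68 without sgCda 1, −0.15 without sgCda 3 and −0.22 without sgNT 5. In sgCda tumors the mean of Enpp1 was above and that of Enpp3 below the sgNT mean, and neither difference passed the test.

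Nt5e (chr9:88327197-88372092, plus strand) encodes CD73, the enzyme that makes adenosine from AMP. It was measured at 19.99, 23.2, 27.6, 25.8 and 21.2 CPM in sgNT tumors and at 26.1, 23.7, 19.8, 22.8 and 26.8 CPM in sgCda tumors. The groups covered almost the same range, with means of 23.5 ± 3.14 and 23.8 ± 2.82 CPM (SD, n = 5 each). The log2 fold change was 0.017 ± 0.11 (SE), and its 95% interval of −0.23 to 0.26 corresponds to a change of −14.5% to 19.7%. Of the 9 tested genes, Nt5e and Entpd1 had the narrowest intervals.

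Ada (chr2:163726584-163750239, minus strand) encodes the enzyme that deaminates adenosine to inosine, and its loss is a classical cause of severe combined immunodeficiency. Its levels were 6.64, 6.51, 6.60, 8.29 and 7.44 CPM in sgNT tumors and 6.24, 7.89, 10.7, 5.60 and 6.90 CPM in sgCda tumors. The sgCda tumors were more widely spread, with sgCda 3 the highest and sgCda 4 the lowest of the 10. Its log2 fold change was 0.076 ± 0.17 (SE; 95% interval −0.31 to 0.46), and it was −0.092 without sgCda 3, so its sign was set by that tumor.

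Adora1 (chr1:134199223-134235431, minus strand) encodes the A1 receptor, which couples to inhibitory G proteins and restrains fat breakdown in adipocytes. It was measured at 0.641, 0.948, 0.620, 0.188 and 0.0754 CPM in sgNT tumors and 0.146, 2.18, 0.252, 0.709 and 0.253 CPM in sgCda tumors, from 3 to 80 counts. The sgCda 2 tumor stood highest and sgNT 5 lowest, 28.9 times apart. The log2 fold change was 0.54 ± 0.79 (SE; 95% interval −1.19 to 2.27), and it was −0.54 without sgCda 2, so that tumor decided its sign. Its coefficient of variation of 0.82 was larger than that of 98.8% of all genes tested. Adora1 shares 20.1% of its exonic bases with Mybph on the opposite strand, and the strand setting of the counting is not stated. Mybph had 0.489 CPM in sgCda 2, and was highest in sgCda 3 (1.93 CPM), where Adora1 was at 0.252 CPM.

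Adora2a (chr10:75316877-75334784, plus strand) encodes the A2a receptor, which raises cyclic AMP and restrains T cells and macrophages. Its levels were 5.33, 3.10, 7.22, 4.96 and 4.55 CPM in sgNT tumors and 5.05, 6.09, 7.61, 4.39 and 3.70 CPM in sgCda tumors. The 2 highest tumors, sgCda 3 and sgNT 3, were in different groups, and the lowest was sgNT 2. Its log2 fold change was 0.095 ± 0.25 (SE; 95% interval −0.44 to 0.63). It was −0.064 without sgCda 3 and −0.039 without sgNT 2.

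Adora2b (chr11:62248984-62266453, plus strand) encodes the A2b receptor, which needs more adenosine than A2a to respond and is known as a hypoxia-induced gene. It was measured at 6.07, 7.61, 8.46, 6.94 and 5.96 CPM in sgNT tumors and 10.9, 7.32, 6.16, 6.98 and 9.11 CPM in sgCda tumors. The 2 highest tumors, sgCda 1 and 5, were both sgCda, and the other 3 sgCda tumors lay within the sgNT range. The log2 fold change was 0.21 ± 0.17 (SE; 95% interval −0.17 to 0.58), and a gain of up to 49.8% lay inside that interval. It was 0.079 without sgCda 1 (unadjusted p = 0.632) and 0.37 without both sgCda 3 and 4 (unadjusted p = 0.0449, edgeR), and no member passed the adjusted threshold in either fit.

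**Figure D2:**
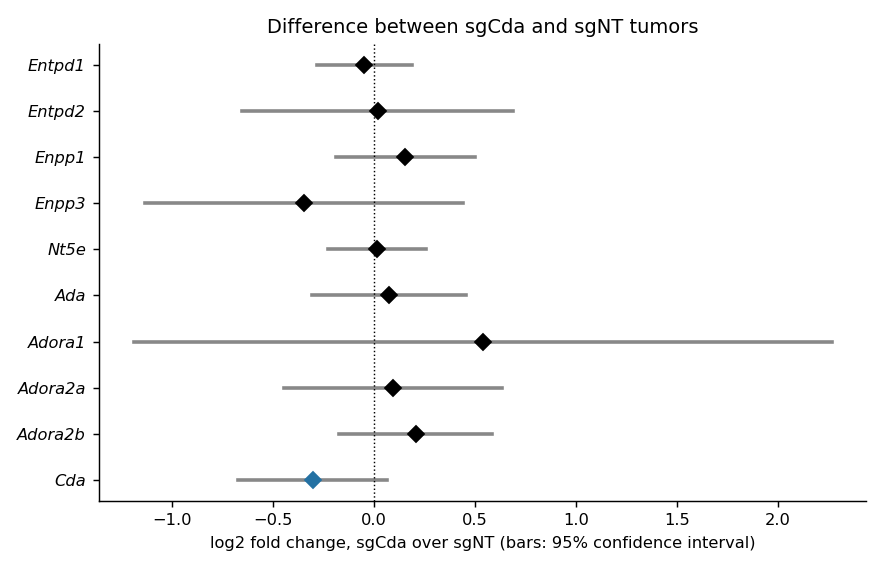
Log2 fold change, sgCda over sgNT, of the 9 tested genes and of Cda (horizontal axis; diamonds, with bars for the 95% confidence interval of the edgeR fit). Every interval includes 0, and the intervals run from narrow for Entpd1 (−0.28 to 0.19) to wide for Adora1 (−1.19 to 2.27).

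Levels of different genes were compared per length, as CPM divided by the length in kilobases of the union of annotated exons (RPKM). Entpd1 was far above the rest, at 21.9 ± 2.64 RPKM (SD, n = 10 tumors), and its lowest tumor was above the highest tumor of any other member. Adora2b (4.09 ± 0.840), Ada (3.64 ± 0.724) and Nt5e (2.75 ± 0.327) followed in RPKM. Adora2b and Ada could not be ordered beyond their spread: Adora2b was the higher in 6 of 10 tumors. Ada was above Nt5e in 10 of 10 tumors, although their ranges overlapped. Below them came Adora2a (1.70 ± 0.469), Enpp1 (0.868 ± 0.150), Entpd2 (0.560 ± 0.186) and Enpp3 (0.278 ± 0.112) in RPKM. In that order, each gene was above the next in 9 or 10 of 10 tumors, from Nt5e over Adora2a to Enpp3 over Adora1, although the ranges of all these neighbours overlapped. Adora1 (0.104 ± 0.108) and Entpd3 (0.0395 ± 0.0303) were lowest, and Adora1 was the higher of them in 8 of 10 tumors. The order was the same in sgNT and in sgCda tumors. With the length of the longest annotated transcript in place of the exon union, Nt5e moved to place 2 at 5.93 RPKM. By that length Nt5e was 1.20 to 1.77 times Ada in all tumors except sgCda 3, where it was 0.777 times. Adora2b was then placed below Ada at 4.09, and Ada stayed in place 3. The places of Adora2b and Nt5e, and the order of Ada and Nt5e, thus depend on the length used. Which transcripts the tumors use was not tested.

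**Figure D3:**
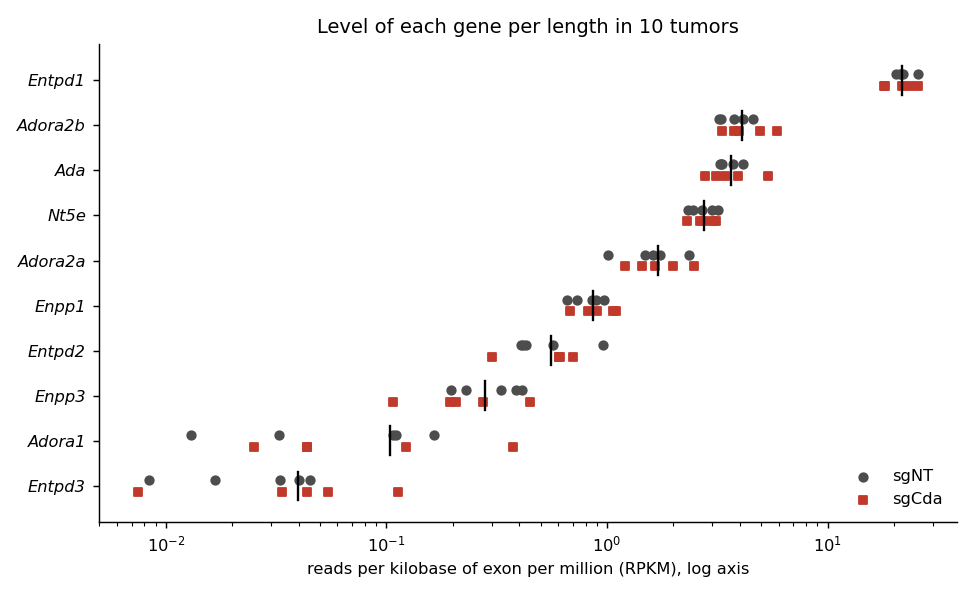
RPKM of each gene (horizontal log axis) in 5 sgNT tumors (circles) and 5 sgCda tumors (squares), with the mean of the 10 tumors as a black line, ordered by that mean. Entpd1 stands apart at the top, and Adora2b, Ada and Nt5e overlap.

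Shares within a tumor describe which enzyme or receptor transcript prevailed. Entpd1 gave 95.5% to 98.3% of the summed RPKM of Entpd1, Entpd2 and Entpd3, so CD39 was the predominant surface NTPDase transcript in all 10 tumors. Among the 4 adenosine receptor genes, with Adora3 added, Adora2b gave 47.7% to 73.2% of the summed RPKM and Adora2a 16.8% to 35.6%. Adora3 gave 7.72% to 16.1%, and Adora1 0.237% to 5.22%. The Adora2b share was lowest in sgCda 3 (47.7%), the tumor with the highest Adora2a share (35.6%). Per length, the Entpd1 level was 5.82 to 10.3 times that of Nt5e on the exon union and 3.57 to 6.33 times on the longest transcript. Entpd1 thus exceeded Nt5e in every tumor by either length. Other enzymes that act on extracellular nucleotides were not added to either side of this ratio. The ratio was lowest in sgCda 5 and highest in sgCda 3, both of the same group. Transcript ratios do not give enzyme activity.

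The genes were then set against scores of cell type markers, the mean log2 CPM of each list, over the 10 tumors. Of 72 relations between the 9 tested genes and 8 lists, 8 had an adjusted p under 0.05 (permutation tests, Benjamini-Hochberg over the 72). The summed level of the 12 macrophage genes ran from 3374 to 4740 CPM in sgNT and 3335 to 4707 CPM in sgCda tumors. The 11 T cell genes ran from 346 to 536 CPM in sgNT and 247 to 792 CPM in sgCda tumors. The 11 fibroblast genes ran from 3965 to 8256 CPM and from 4574 to 6982 CPM, and no gene of any list was at 0 in every tumor. Of the 11 epithelial markers, 9 passed the count filter, and the list summed to 635 to 1104 CPM over the 10 tumors. Several of the 16 scores vary together: the macrophage and T cell scores had r = 0.92, so relations with one cannot be told apart from relations with the other. On the skeletal muscle score the tumors fall into separate sets. Its rho to the macrophage, T cell and regulatory T cell scores was 0.62, 0.82 and 0.78, and how far these values reflect that split was not tested. The skeletal muscle score was highest in sgCda 3 (7.66), the tumor with the highest macrophage and T cell scores. Its part in the relations below was not tested. None of the 10 genes is in any list.

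Entpd1 and Adora2a followed the macrophage and T cell lists, and Adora2a also the regulatory T cell list. Entpd1 did not pass with the regulatory T cell score (r = 0.55, permutation, adjusted p = 0.306) or the endothelial score (r = 0.23, permutation, adjusted p = 0.889). With the neutrophil, dendritic cell, B cell and plasma cell, and NK cell lists, added later, neither gene passed. For Adora2a with the macrophage score, r was 0.91 (permutation, adjusted p = 0.0259) and rho 0.96 (adjusted p = 0.00216). Without sgCda 3 and 4, the tumors farthest from the median score, r was 0.99 (exact permutation, adjusted p = 0.00179). As deviations from the group means it was 0.92 (adjusted p = 0.0442). Leaving out 1 tumor kept r between 0.88 and 0.98. The adjusted p, over exact permutations of 9 tumors, was above 0.05 without sgNT 3, sgNT 5, sgCda 2 or sgCda 5, with 0.0794 the highest. With the median over the list's genes in place of the mean, r was 0.79 (permutation, adjusted p = 0.0604).

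For Entpd1 with the macrophage score, r was 0.84 (permutation, adjusted p = 0.0361) and rho 0.88 (adjusted p = 0.0286). Without sgCda 3 and 4, r was 0.86 (exact permutation, adjusted p = 0.242), and the call was lost. With the median over the list r fell to 0.55, so this relation depends on how the score is made. Entpd1 with the T cell score had r = 0.85 (permutation, adjusted p = 0.0361) and rho = 0.95 (adjusted p = 0.00468). Without sgCda 3 and 5, r was 0.98 (exact permutation, adjusted p = 0.00268). Leaving out 1 tumor gave r of 0.79 to 0.90 with macrophages and 0.80 to 0.99 with T cells, and the calls were lost without sgNT 2, 3 or 5 or sgCda 2, 4 or 5.

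Adora2a with the T cell score had r = 0.83 (permutation, adjusted p = 0.0361) and rho = 0.93 (adjusted p = 0.0084). Without sgCda 3 and 5 it was 0.72 (exact permutation, adjusted p = 0.47), and the call was lost. Adora2a with the regulatory T cell score had r = 0.86 (permutation, adjusted p = 0.0361) and rho = 0.78 (adjusted p = 0.134). Without sgNT 2 and sgCda 5 it was 0.64 (exact permutation, adjusted p = 0.573), so this relation rests on those tumors. Enpp1 ran the other way, with r = −0.81 to the T cell score (permutation, adjusted p = 0.037) and rho = −0.75 (adjusted p = 0.159). Without sgCda 3 and 5 it was −0.70 (exact permutation, adjusted p = 0.47), and the call was lost. The Adora2a relation with the T cell score was lost without sgNT 3 or 5 or sgCda 2, 3, 4 or 5. That with the regulatory T cell score was lost without sgNT 2, 3 or 5 or sgCda 2, 3 or 5. The Enpp1 relation was lost when any 1 tumor except sgNT 4 was left out, with r between −0.96 and −0.75.

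Entpd2 followed the fibroblast score, with r = 0.85 (permutation, adjusted p = 0.0361) and rho = 0.78 (adjusted p = 0.134). Without sgCda 4 and sgNT 5, the tumors at the ends of the score, r was 0.59 (exact permutation, adjusted p = 0.573), so the relation rests on those tumors, which also hold the lowest and the highest Entpd2 level. Leaving out 1 tumor gave 0.76 to 0.90, and the call was lost without sgNT 2, 3 or 5 or sgCda 2, 4 or 5. The remaining call joined Adora2a to the skeletal muscle score. On that score the tumors fall into separate sets of 5, so no r over the 10 is given, and 5 tumors are too few to relate within a set.

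As deviations from the group means, r was 0.86 for Entpd1 with the macrophage and T cell lists (adjusted permutation p = 0.0765 and 0.0696). It was 0.84 for Adora2a with T cells (adjusted permutation p = 0.0403), and 0.86 with regulatory T cells (adjusted permutation p = 0.0678). On the same scale it was −0.85 for Enpp1 (permutation, adjusted p = 0.0678) and 0.87 for Entpd2 (adjusted p = 0.0442).

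Nt5e, Enpp3, Ada, Adora1 and Adora2b passed the test with none of the 8 lists. Nt5e and the hypoxia response score had r = 0.56 (permutation, adjusted p = 0.30; rho = 0.52, adjusted p = 0.438), and 0.20 without the 2 farthest tumors. Adora2b had r = 0.28 with the same score (permutation, adjusted p = 0.835; rho = 0.44, adjusted p = 0.583), and −0.099 without the 2 farthest.

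**Figure D4:**
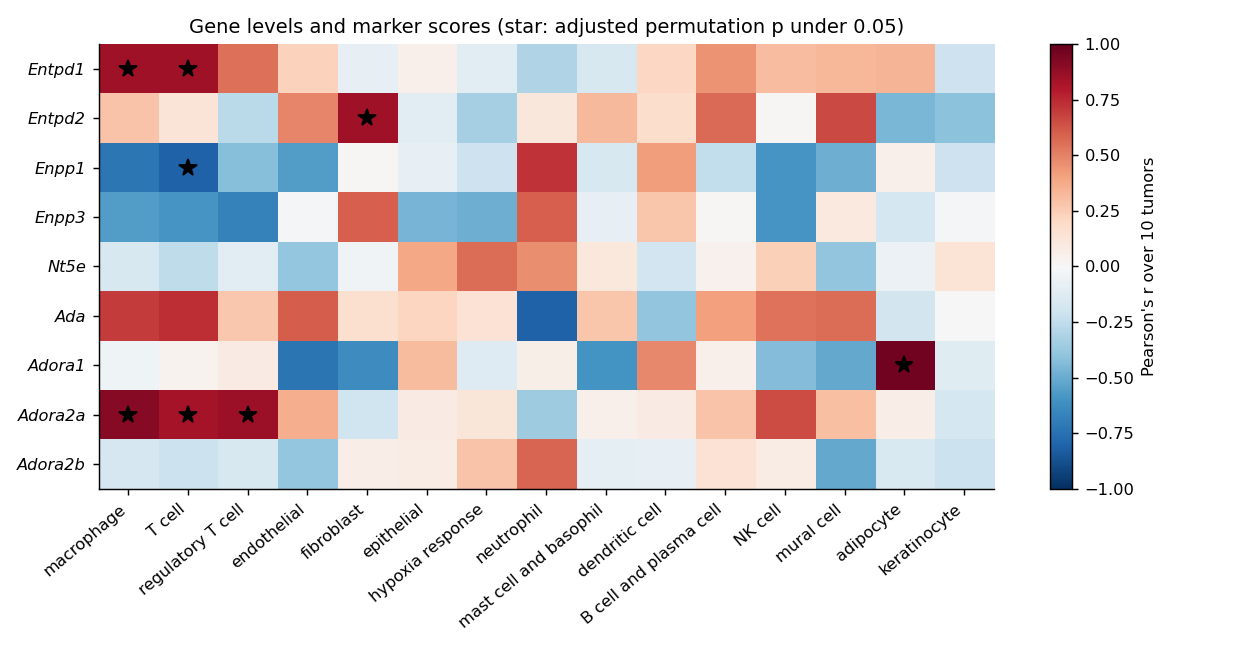
Pearson's r over 10 tumors (colour, −1 to 1) between the log2 CPM of the 9 tested genes (rows) and 15 marker scores (columns; the skeletal muscle score is left out); stars mark an adjusted permutation p under 0.05. Entpd1 and Adora2a share dark cells in the macrophage and T cell columns, and Adora1 has its single star with adipocyte genes.

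A second family of 72 relations, with the other 8 lists, was added after the data were seen, and 1 relation passed. Adora1 followed the adipocyte score (Adipoq, Plin1, Plin4, Cidec, Lep and Cfd), with r = 0.96 (permutation p = 2e-05, adjusted p = 0.00144) and rho = 0.92 (adjusted p = 0.0338). Without sgCda 2 and sgNT 5, the tumors at the ends of the score, r was 0.93 (exact permutation, unadjusted p = 0.00533). The list's genes Adipoq and Cidec were also the closest to Adora1 among 12248 genes compared, which these p-values do not account for. The adipocyte score was 4.98 in sgCda 2, 3.83, 3.97 and 3.38 in sgNT 1, 2 and 3, and 0.796 in sgNT 5, the tumor with the lowest Adora1 level. Adipoq, the adipokine adiponectin, ran from 1.18 to 13.3 CPM in sgNT tumors and from 1.28 to 44.5 CPM in sgCda tumors. The score did not pass a test between the groups (exact permutation p = 0.675). With it as a covariate, also added after the data were seen, the log2 fold change of Adora1 was 0.62, with an unadjusted p = 0.0215 in edgeR's test, and no member passed the adjusted threshold.

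The members were also related to each other, likewise after the data were seen. None of 36 pairs passed the adjusted threshold. The pair with the smallest p was Nt5e and Adora2b, the enzyme that makes adenosine and the most abundant adenosine receptor transcript per length. Their r was 0.82 (permutation p = 0.00359, adjusted p = 0.117) and rho 0.82 (adjusted p = 0.107). It was 0.80 without the 2 farthest tumors, 0.78 to 0.89 when 1 tumor was left out, and 0.85 as deviations from the group means. Both genes were low in sgCda 3, sgNT 1 and sgNT 5 and high in sgCda 1, sgCda 5 and sgNT 3. Per length, Adora2b was 1.26 to 1.94 times Nt5e on the exon union, and 0.583 to 0.900 times Nt5e on the longest transcript, so the direction of this ratio depends on the length used. Entpd1 and Adora2a had r = 0.79 (permutation p = 0.00649, adjusted p = 0.117; rho = 0.88, adjusted p = 0.0536).

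**Figure D5:**
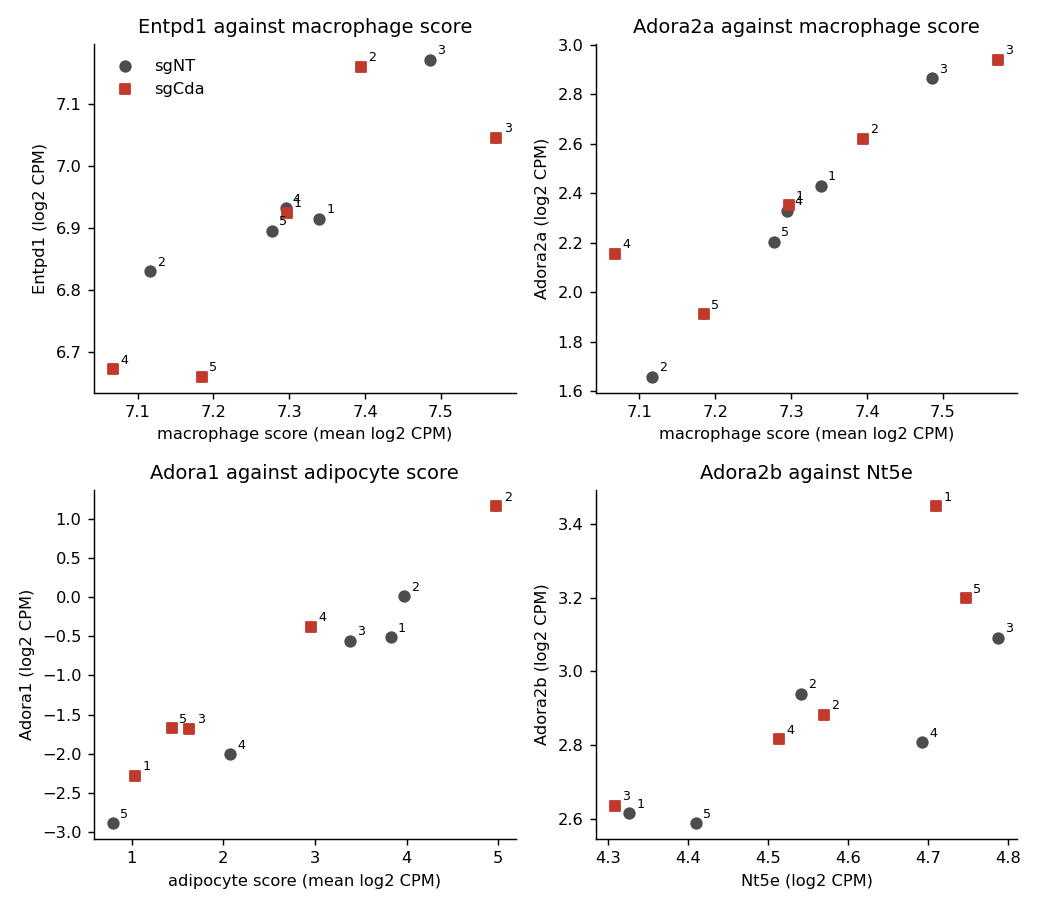
Log2 CPM of Entpd1 and Adora2a against the macrophage score, of Adora1 against the adipocyte score, and of Adora2b against Nt5e, for sgNT (circles) and sgCda (squares) tumors labelled with their replicate number. The groups intermingle in every panel, with r of 0.84, 0.91, 0.96 and 0.82.

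The promoters of Nt5e and Adora2b are printed because this pair had the highest r and both are known hypoxia-induced genes. Each runs from 250 bases before to 50 bases after the RefSeq transcript start, and capitals mark the hypoxia-response core, ACGTG or GCGTG on either strand.
Nt5e, chr9:88327359-88327658 of GRCm38.p6, plus strand: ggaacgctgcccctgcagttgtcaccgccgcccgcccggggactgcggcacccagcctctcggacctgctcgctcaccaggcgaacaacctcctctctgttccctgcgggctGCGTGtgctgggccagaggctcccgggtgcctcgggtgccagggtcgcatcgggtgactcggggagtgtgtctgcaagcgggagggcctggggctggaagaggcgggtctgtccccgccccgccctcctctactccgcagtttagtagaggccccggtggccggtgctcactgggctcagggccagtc
Adora2b, chr11:62248734-62249033 of GRCm38.p6, plus strand: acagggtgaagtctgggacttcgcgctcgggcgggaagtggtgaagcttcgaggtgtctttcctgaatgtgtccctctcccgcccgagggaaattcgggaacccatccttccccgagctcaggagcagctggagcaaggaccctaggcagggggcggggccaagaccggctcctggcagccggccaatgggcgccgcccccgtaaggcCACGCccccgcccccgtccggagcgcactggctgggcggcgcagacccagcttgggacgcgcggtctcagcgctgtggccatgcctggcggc
Each holds 1 match, on the plus strand in Nt5e and on the minus strand in Adora2b. Such letters occur in 14380 of 32851 RefSeq promoters (43.8%), and in 9 of the 11 promoters listed for 9 of the 10 genes (Adora2a was not in the table). A match is a description of the letters and not a binding site.

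The genes whose log2 CPM was most like that of each member over the 10 tumors are given as a description. They were sought among 12248 genes whose log2 CPM averaged 1 or more. Each was picked for a top r among so many genes over only 10 tumors, so a high r can arise without a relation. Whether any r exceeded what unrelated genes would reach was not tested, and no shared function is inferred. Entpd1 was closest to Cmtm7 (r = 0.98) and Psap (r = 0.97), which encodes the lysosomal protein prosaposin. Adora2a was closest to Il18r1 (r = 0.97), the interleukin-18 receptor, and Arl5c (r = 0.97). Adora1 was closest to Adipoq (r = 0.97) and Cidec (r = 0.96), a lipid droplet protein of adipocytes. Both also belong to the adipocyte list. Ada was closest to Ndufa9 (r = 0.97), a subunit of respiratory complex I, and Uqcc1 (r = 0.96), an assembly factor of complex III. Enpp1 was closest to Id4 (r = 0.97) and Tfb2m (r = 0.95), and Enpp3 to Farp1 (r = 0.96) and Snx13 (r = 0.94). Entpd2 was closest to Nme4 (r = 0.94), a mitochondrial nucleoside diphosphate kinase, and Sall2 (r = 0.93). Nt5e was closest to Rad51b (r = 0.93) and Lta4h (r = 0.89), the leukotriene A4 hydrolase, and Adora2b to Tmem263 (r = 0.92) and Shc4 (r = 0.89). By r, the closest gene of Nt5e and of Adora2b was less alike than that of the other 7 tested genes. By rho this did not hold for Nt5e (0.94 with Rad51b, beside 0.93 for Adora1 with Adipoq).

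The wider pathway was read from 9 lists of 73 genes, of which 71 were in the table and 61 were tested. None passed the adjusted threshold: 27 were higher and 34 lower in sgCda tumors, with a median log2 fold change of −0.0070, beside 0.0078 over all genes. One had an unadjusted p under 0.05, beside 2.5% of all genes. That gene was Enpp4, an NPP family ectoenzyme that hydrolyses diadenosine polyphosphates. Its levels were 55.3, 60.4, 73.9, 69.6 and 55.5 CPM in sgNT tumors and 53.1, 60.9, 46.7, 44.2 and 49.0 CPM in sgCda tumors, so that 1 sgCda tumor lay within the sgNT range. The sgCda over sgNT log2 fold change was −0.31 ± 0.11 (SE), with an unadjusted p = 0.0167 and an adjusted p = 0.9996 (edgeR).

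By list, 0 of 3 tested other NTPDases, 1 of 3 other NPPs, 5 of 6 other ecto-enzymes and 2 of 5 intracellular 5'-nucleotidases were higher in sgCda tumors, none past the test. The same held for 6 of 10 genes of purine handling inside the cell, 2 of 4 nucleoside transporters, 2 of 5 genes of nucleotide release, 4 of 15 genes of receptor signalling and 5 of 10 cyclic AMP-responsive transcripts. The most abundant gene of each list gives the scale. Values are means ± SD (n = 5 each) in CPM, sgNT before sgCda. Enpp2, which encodes autotaxin, was at 140.4 ± 91.7 and 217 ± 155 CPM. Xdh, the xanthine oxidoreductase that completes purine breakdown, was at 503 ± 84.8 and 478 ± 102 CPM. Slc29a1, the equilibrative nucleoside transporter that takes up adenosine, was at 124 ± 8.64 and 111.8 ± 9.85 CPM (log2 fold change −0.14, unadjusted p = 0.0752, edgeR). Gja1, the connexin 43 channel, was at 361 ± 31.4 and 319 ± 33.8 CPM. Nt5c was at 65.1 ± 6.63 and 69.4 ± 4.92, Acpp at 31.0 ± 7.63 and 30.3 ± 10.7, and Entpd5 at 21.8 ± 1.47 and 21.4 ± 2.05 CPM. Gnai2, the inhibitory G protein alpha subunit, was at 797 ± 38.2 and 767 ± 52.7 CPM, and Per1 at 71.4 ± 28.3 and 95.9 ± 50.4 CPM. Adora3, the remaining adenosine receptor gene, was at 2.72 ± 0.331 and 3.04 ± 0.835 CPM. Between the groups it differed by a log2 fold change of 0.16 (95% interval −0.29 to 0.61).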

How the data were processed

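RNA was isolated from bulk tumors, and stranded poly(A) libraries were sequenced. The authors mapped the reads to GRCm38 with Bowtie and TopHat and deposited raw counts per Ensembl gene from HTSeq (version 07.2 in the submitters' processing notes, which also name FastQC 0.11.5). The strand setting and overlap mode of the counting are not given in the sources used here. HTSeq summary rows were left out. Symbols, coordinates and lengths came from GENCODE M21 on GRCm38 (32608 of 37417 identifiers matched).

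Genes passing filterByExpr (minimum count 10, minimum total 15) were compared with edgeR 4.0.16 (R 4.3.3): TMM, quasi-likelihood test, Benjamini-Hochberg over 15299 genes, threshold 0.05. Log2 CPM used a prior count of 2. Marker scores were compared by two-sided exact permutation tests over 5 against 5 tumors. Relations used Pearson's and Spearman's coefficients with 100000 permutations (exact enumeration below 10 tumors). The fit and the correlation code were tested on simulated data.

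The genes and lists were chosen with earlier results of these data known. Named beyond the members were Cda, pathway genes with an unadjusted p under 0.05, the most abundant gene of each list, and the 2 genes most like each member. Adora3, Mybph, Npdc1 and Adipoq's range were added after their values were seen. Entpd4 and Pnp were not matched. Alternatives covered scaling (DESeq2 1.42.0 size factors, library totals), filters, DESeq2 and limma-voom 3.58.1, a replicate block, each tumor left out, and 2 marker scores as covariates.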

Additional observations from a re-analysis of the deposited data

Results flagged for a closer look

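The 10 genes, Cda and 16 marker scores were examined in each group, and 5 of these 54 sets of 5 values held a tumor whose gap to the nearest other, divided by the range of the group, exceeded Dixon's 95% critical value of 0.71. Chance flags about 1 in 20 groups, which is 2.7 of 54. Entpd2 stood at −0.52 log2 CPM in sgCda 4, where 18 counts were assigned to it, while the remaining sgCda tumors lay between 0.43 and 0.63. The same tumor had the lowest fibroblast score, 6.87, and the largest share of reads that matched no counted feature. The T cell score of sgNT 3 was 5.22, against 4.63 to 4.79 in the other sgNT tumors. That tumor also had the highest Entpd1 (144 CPM) and Adora2a (7.22 CPM) of its group. The neutrophil score of sgCda 3 was 1.77, against 2.62 to 2.95 in the rest of its group. In sgCda 4 the B cell and plasma cell score was 0.23, and 1.85 to 2.27 in its group otherwise. The keratinocyte score of sgNT 4, from the 2 of 8 listed genes that passed the count filter, was 3.09, against 1.09 to 1.46.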

How the results depend on the processing

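No gene passed the adjusted threshold under any of 20 alternatives, members and other pathway genes included. Genes at an unadjusted p under 0.05 numbered 830 with a filter of 1 count in any tumor, which kept 26302 genes in place of 15299. They numbered 280 to 747 when 1 tumor was left out (747 without sgCda 3). Whether replicate numbers pair the tumors was not tested. Correlations of same-numbered tumors were −0.028, −0.024, 0.33, −0.43 and 0.34, above 0.1 in 2 of 5. For sgNT 3 and sgNT 5 the same-numbered sgCda tumor was also the best match of the sgCda group. With the replicate block there were 325 genes at an unadjusted p under 0.05, and it changed no call.

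The log2 fold changes of Enpp1, Enpp3 and Adora2b kept their sign under every alternative but moved by over 1.5 times when 1 tumor was left out: Enpp1 0.080 to 0.24, Enpp3 −0.68 to −0.15 and Adora2b 0.079 to 0.29. Enpp3 was −0.038 without sgCda 3 and 4. Those of the other tested members turned under at least 1, and none passed the threshold in either direction. Leaving out 1 tumor gave Entpd1 −0.12 to 0.013, Entpd2 −0.073 to 0.31, Nt5e −0.040 to 0.080, Ada −0.092 to 0.16, Adora1 −0.54 to 0.91 and Adora2a −0.064 to 0.26. Entpd2 was −0.00094 with the adipocyte covariate, Nt5e −0.00026 with the filter of 1 count, and Ada −0.019 and Adora2a −0.024 without sgCda 3 and 4. The cause was not tested.

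The 8 relations with marker scores became 4 by Spearman's rho, 3 as deviations from the group means, 2 with list medians, 2 without the 2 farthest tumors and 0 to 9 when 1 tumor was left out: 0 without sgNT 3, sgNT 5, sgCda 2 or sgCda 5, 2 without sgNT 2 or sgCda 4, and 4 without sgCda 3. None changed sign. With the longest transcript as length, 2 members changed place in the order of levels and Nt5e exceeded Adora2b in every tumor. Low counts limit Entpd3, Adora1 and Entpd2.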
